A study of Saccharomyces cerevisiae with 26 samples.

Results

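The 10 RNA-Seq libraries of the pub1Δ and wt strains were compared, out of 26 libraries in the series (the others are gir2Δ RNA-Seq libraries and all the Ribo-Seq libraries). The members were taken by strain and assay from the sample titles, and the batch of each library from the b tag of its title. The 5 pub1Δ libraries came from the strain MATalpha his3Δ1 leu2Δ0 lys2Δ0 ura3Δ0 pub1::KanMX, in which a kanamycin resistance cassette replaces PUB1. The 5 wt libraries came from the same MATalpha his3Δ1 leu2Δ0 lys2Δ0 ura3Δ0 background, BY4742, so all 10 shared these 4 auxotrophic alleles. The cultures were grown in glucose-rich YPD medium to exponential phase, mRNA was selected on oligo(dT) beads, and no treatment was applied. Batch 1 held 1 pub1Δ and 3 wt libraries, batch 4 held 1 pub1Δ and 2 wt libraries, and batch 3 held 3 pub1Δ libraries and no wt library. The labels do not say whether the pub1Δ libraries came from separate clones. The p-values below rest on the spread between libraries, pooled with that of the gir2Δ libraries in the fits of all RNA-Seq libraries. In the tests within a batch, the lone pub1Δ library was assumed to vary like the others.

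Pub1 is an abundant RNA-binding protein of budding yeast with RNA recognition motifs that prefer U-rich RNA. It shuttles between nucleus and cytoplasm, is a known component of stress granules, and is known to protect some mRNAs from decay, among them mRNAs with AU-rich elements and mRNAs such as GCN4 whose leaders carry upstream open reading frames. The comparison addresses which transcripts differ in level between cells without Pub1 and cells with it.

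PUB1 itself was nearly absent from 4 of the 5 pub1Δ libraries. It had 3 counts in pub1Δ of batch 1, 1 count in each of the 3 pub1Δ libraries of batch 3 and 47 counts in pub1Δ of batch 4, against 639, 696 and 831 counts in wt of batch 1 and 1013 and 803 counts in wt of batch 4. As CPM (read counts brought to 1 library size by TMM factors, the level used throughout), pub1Δ had 0.284 to 18.6 CPM and wt had 262 to 423 CPM. No pub1Δ library overlapped the wt range, and the 18.6 CPM of pub1Δ in batch 4 lay far above the 1.08 CPM of the next pub1Δ library. The origin of these reads was not tested, and results that rest on the batch 4 library are given beside those of the other batches. In the batch-adjusted fit PUB1 fell by 5.19 ± 0.29 (SE, log2 scale; edgeR adjusted p = 5.25e-09). The nearest tested genes on either side did not follow it. ARK1, a kinase of actin patches, differed by 0.016 ± 0.19 and PBI2, an inhibitor of vacuolar protease B, by -0.11 ± 0.22 (log2, SE).

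The libraries held 2241017 to 3896827 gene counts in pub1Δ and 2217490 to 2917963 in wt. Genes with at least 10 CPM in at least 4 RNA-Seq libraries were tested, which kept 5098 of 7036 genes. SNR4, at 10.0 CPM in its fourth-highest library, lay just inside this limit and EMA17, at 9.93 CPM, just outside it. Multimapping reads made up 12.3% of the reads in pub1Δ replicate 3 and 6.84% to 8.36% in the other 9 libraries. Of the markers of the labelled background, MATalpha genes were high, LEU2 and URA3 had 0 counts and LYS2 had 0 or 1 count in all 10 libraries. HIS3 had 158 to 366 counts in pub1Δ and 136 to 198 counts in wt, and the his3Δ1 allele is a partial deletion, so these reads do not check it. The genotype label of pub1Δ replicate 1 names gir2::KanMX, while its title and strain label name pub1Δ. This library had 1 PUB1 count and 894 GIR2 counts, so it carried the pattern of its title.

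**Figure D1:**
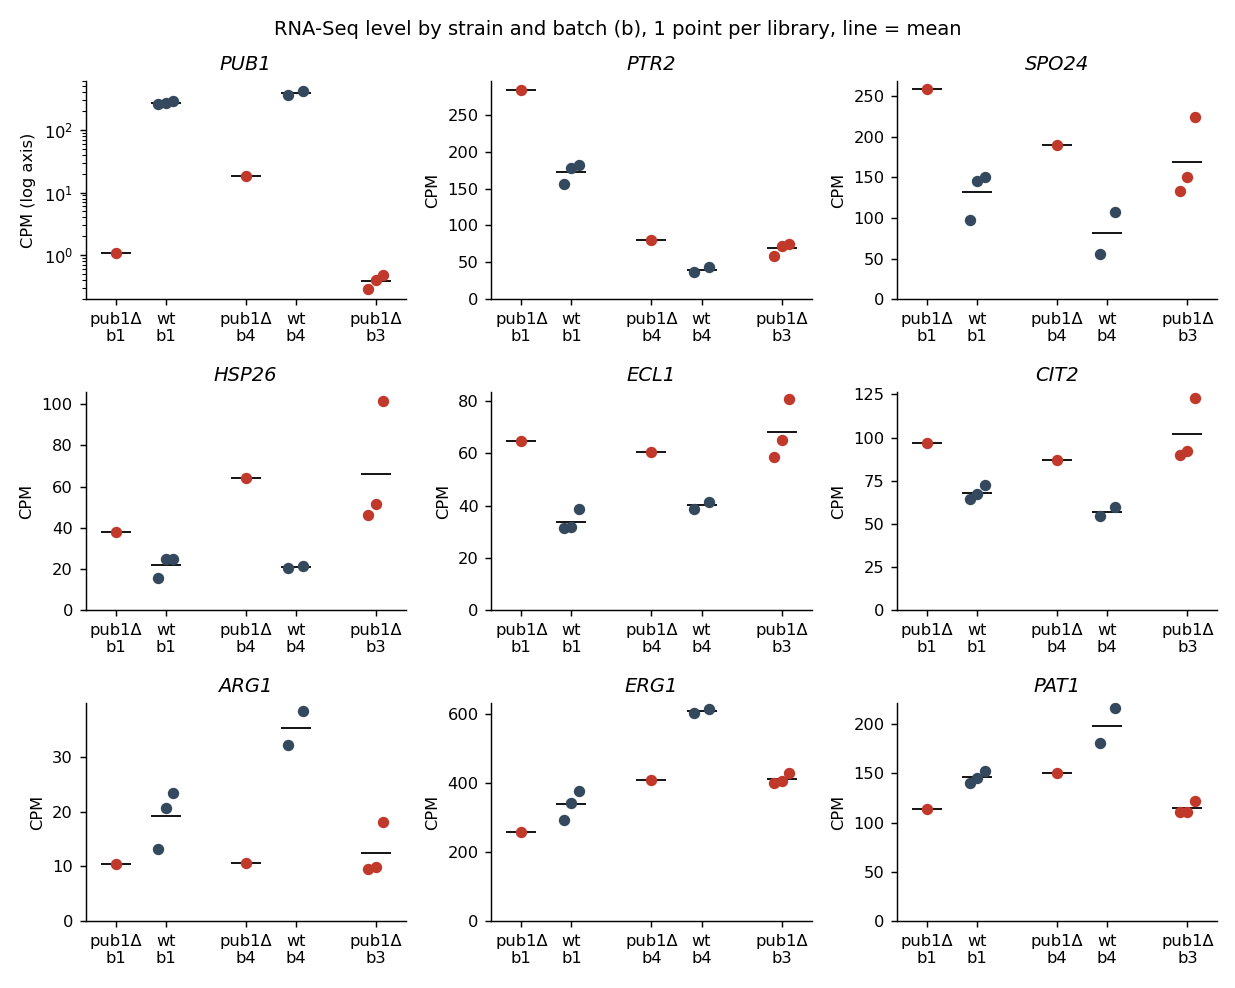
Level of 9 genes in each RNA-Seq library (CPM, a log axis for PUB1), pub1Δ in red and wt in blue, by batch (b), with the mean as a line. PTR2 had 284 CPM in pub1Δ against 157 to 182 CPM in wt within batch 1, and 80.9 CPM in pub1Δ against 43.8 and 36.4 CPM in wt within batch 4. In each panel every pub1Δ library lies on the same side of the wt libraries it was compared with.

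More genes were called between batches than between strains. Each strain test within a batch held 1 pub1Δ library, so these call counts do not compare the sizes of the differences. With no difference at all, a share of about 0.05 of the 5098 tested genes would have an unadjusted p under 0.05, both directions together. Between wt of batch 4 and wt of batch 1, which carry no strain difference, edgeR called 1579 genes, 31% of those tested, with 705 higher and 874 lower in batch 4. Within batch 1, pub1Δ against wt called 1 gene, PUB1 (0.0196% of those tested), and 335 genes had an unadjusted p under 0.05. Within batch 4 PUB1 was again the gene called (0.0196%), with 373 genes at an unadjusted p under 0.05. The pub1Δ libraries of batches 3 and 4 together against wt of batch 4 called PUB1 alone (0.0196%), with 957 genes at an unadjusted p under 0.05. This number rests on single libraries, since 498 genes were called without pub1Δ replicate 4, when all pub1Δ libraries are of batch 3, and 46 without pub1Δ replicate 1. In the last comparison batch 3 and strain cannot be told apart.

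The batch-adjusted fit of all libraries called 2 of 5098 genes (0.0392%), PUB1 lower and PTR2 higher in pub1Δ. Because batch 3 holds no wt library, this estimate rests on the single pub1Δ libraries of batches 1 and 4, and the batch 3 libraries enter only through the spread. At an unadjusted p under 0.05, 261 genes were higher (5.12%) and 210 lower (4.12%). With each library corrected for coding length, as described below, the fit called 3 genes (0.0588%), these 2 and TDA1, which was higher. Counts corrected for batch with ComBat-seq and then tested for strain alone, a fit that no longer has batch as a term, called 551 genes, so the number of calls depends on how batch is handled.

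PTR2, which encodes the plasma membrane transporter that takes up di- and tripeptides, was the gene that rose. It had 284 CPM in pub1Δ of batch 1 against 182, 157 and 178 CPM in wt of batch 1. It had 80.9 CPM in pub1Δ of batch 4, and 58.8, 72.3 and 75.5 CPM in pub1Δ of batch 3, against 43.8 and 36.4 CPM in wt of batch 4. Each pub1Δ library was above each wt library it was compared with, while the wt libraries of batch 1 were above the pub1Δ libraries of batches 3 and 4. The batch-adjusted difference was 0.83 ± 0.11 (log2, SE; edgeR adjusted p = 0.00255). The call was lost without pub1Δ replicate 4 (0.72, adjusted p = 0.189) and without pub1Δ replicate 5 (1.01, adjusted p = 0.0909). Without a batch term the difference was -0.067. Of the 25 tested peptide and amino acid permeases, PTR2 was the 1 member higher in every batch (4% against 6.38% of all tested genes). After the length correction described below, the higher share was 8% against 4.3%. TAT1, a transporter of tyrosine, tryptophan and branched-chain amino acids, was the 1 member lower. The lower share was 4% with and without that correction, against 5.51% of all tested genes and 5.26% after it. The median of the list was -0.03 (log2).

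Since the fit called so few genes, the genes that lay on the same side in every batch were counted as a second, untested description. A gene was counted as higher, or as lower, when every pub1Δ library lay beyond every wt library it was compared with, in batch 1, in batch 4 and for batch 3 against wt of batch 4. This held for 325 genes in the higher direction (6.38% of those tested) and for 281 in the lower direction (5.51%), PUB1 among them. Leaving out a library leaves the rule fewer conditions to meet. Without wt replicate 3, which serves in the comparisons of batch 4 and of batch 3, 591 genes were higher and 568 lower. The batch-adjusted differences of the 325 ranged from 0.04 to 1.32 with a median of 0.31 (log2). Those of the other 280 lower genes ranged from -1.27 to -0.04 with a median of -0.24. Most of these genes thus differed by less than PTR2, and PTR2 and PUB1 were the 2 that passed the edgeR test.

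Batches 1 and 4 share no library, so they can be set against each other. In batch 1, 1408 genes had the pub1Δ library above all wt libraries and 1397 had it below. In batch 4 these numbers were 1846 and 1706. Of the genes higher in batch 1, 608 were higher in batch 4 too (43.2% of those in batch 1, 32.9% of those in batch 4), and 354 were lower there. Of those lower in batch 1, 554 were lower in batch 4 too (39.7% and 32.5%), and 426 were higher. Over all tested genes, 36.2% were higher and 33.5% lower in batch 4, beside the 43.2% and 39.7% above. In either direction, more genes lay on the same side in both batches than on opposite sides. After the length correction described below, 489 of the 1252 genes higher in batch 1 were higher in batch 4 (39.1%) and 376 were lower there (30%). Of the 1521 lower in batch 1, 653 were lower in batch 4 (42.9%) and 471 higher (31%). Over all 5098 tested genes, 1737 were higher and 1902 lower in batch 4 after that correction.

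**Figure D2:**
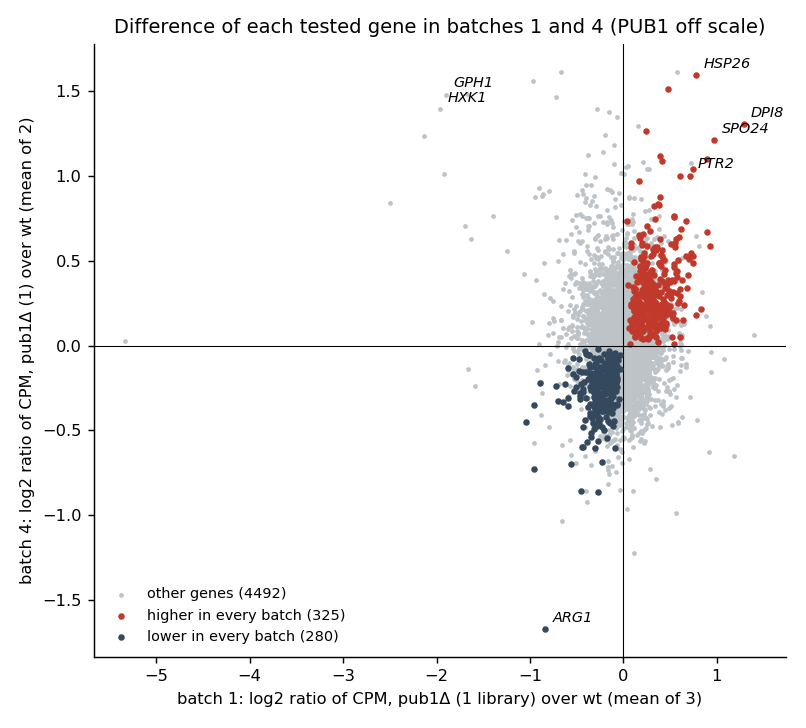
Each tested gene by its log2 ratio of mean CPM, pub1Δ over wt, in batch 1 (x axis, 1 library over the mean of 3) and in batch 4 (y axis, 1 over the mean of 2), with PUB1 off the scale. The 325 genes higher and 280 lower in every batch lie in the upper right and lower left parts of the plot, and GPH1 and HXK1 lie at about -2 in batch 1 and above 1 in batch 4.

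Coding length separated the 2 groups. The median coding length was 658.5 bases for the higher genes and 1833 bases for the lower genes, against 1281 bases over all tested genes. Of the 150 genes of up to 300 bases, 22% were higher and 0% lower in every batch. Of the 452 genes over 3000 bases, 0.221% were higher and 14.6% lower. The shortest genes had the highest and the longest the lowest median log2 ratio in all 3 comparisons, 0.48 for the shortest and -0.35 for the longest genes in batch 3 against wt of batch 4, 0.20 and -0.08 in batch 1, and 0.19 and -0.06 in batch 4. The libraries themselves differed in this, with slopes of -0.26 to -0.13 log2 units per doubling of length in pub1Δ of batch 3, -0.01 in pub1Δ of batch 4 and 0.08 in pub1Δ of batch 1, against 0.11 to 0.15 in wt of batch 1 and 0.07 and -0.01 in wt of batch 4. After a smooth curve of level against coding length was taken out of each library, 219 genes were higher in every batch (4.3%) and 268 lower (5.26%). Of the 325 higher genes 161 remained, and of the 281 lower genes 163 remained. The source of the length dependence was not tested. The counts of the gene lists and terms below are given with and without this correction. The motif, T content and footprint shares of the higher and lower genes are given without it alone.

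**Figure D3:**
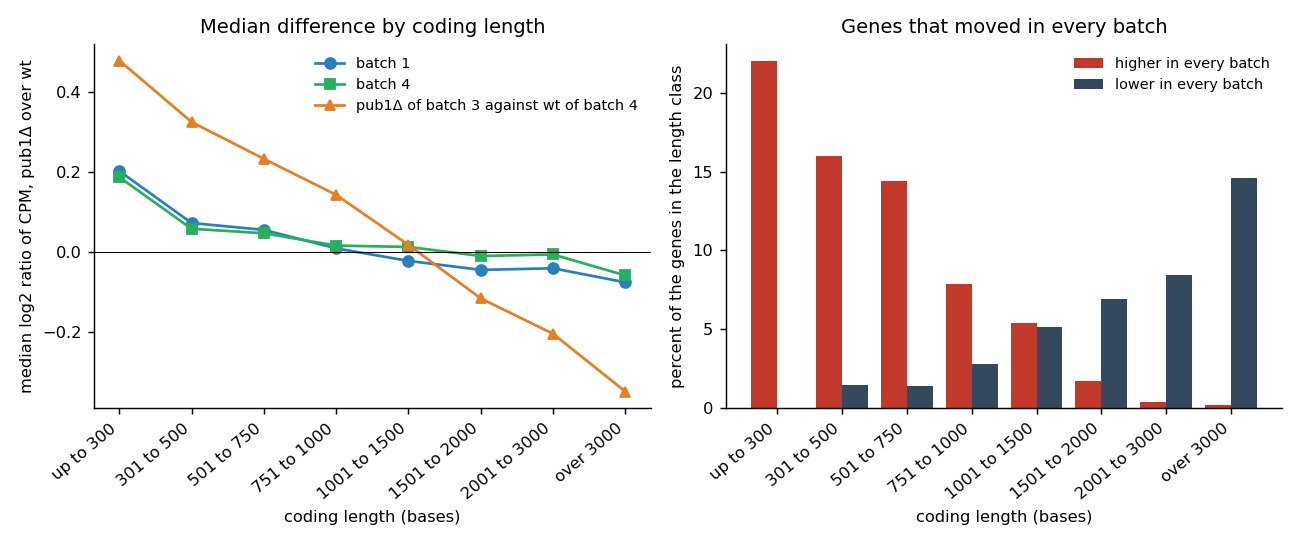
Left, median log2 ratio of CPM, pub1Δ over wt, for genes in 8 classes of coding length, in the 3 comparisons. Right, the percent of each class that was higher (red) or lower (blue) in every batch, with 22% of the shortest class higher and 14.6% of the longest class lower.

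The genes described next had the clearest separation among the higher genes. SPO24, a small protein of sporulation, had 259 CPM in pub1Δ against 97.9, 151 and 146 CPM in wt of batch 1. In batch 4 it had 190 CPM in pub1Δ against 107 and 56.0 CPM in wt. Its batch-adjusted difference was 1.08 ± 0.20 (log2, SE; edgeR adjusted p = 0.0869), and it was no longer higher in every batch after the length correction. DPI8, a putative mitochondrial protein encoded by 225 bases, had 23.8 CPM in pub1Δ against 6.44 to 12.3 CPM in wt of batch 1, and 11.9 to 29.3 CPM in pub1Δ of batches 3 and 4 against 5.85 and 3.19 CPM in wt of batch 4. The separation of DPI8 remained after the length correction.

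ECL1, a factor that extends lifespan in a way that depends on mitochondria, kept a narrow range in both strains. It had 64.6 CPM in pub1Δ against 31.8, 38.5 and 31.2 CPM in wt of batch 1, and 58.5 to 80.8 CPM in pub1Δ of batches 3 and 4 against 41.3 and 38.7 CPM in wt of batch 4. All 5 pub1Δ libraries lay above all 5 wt libraries, with a batch-adjusted difference of 0.78 ± 0.16 (log2, SE; edgeR adjusted p = 0.0869). HSP26, a small heat shock chaperone, had 37.9 CPM in pub1Δ against 24.9, 15.9 and 24.9 CPM in wt of batch 1. In the other batches pub1Δ had 46.0 to 102 CPM against 21.3 and 20.5 CPM in wt of batch 4. HSP26 was also separate in all 10 libraries, at 1.19 ± 0.29 (log2, SE; adjusted p = 0.189 in edgeR). Other genes higher in every batch were ATG8, the ubiquitin-like protein of autophagosome membranes (1.02), HAP3, a subunit of the Hap2/3/4/5 activator of respiratory genes (0.66), CSE4, the centromeric histone H3 (0.62), and BLS1, a subunit of the yeast BLOC-1 complex (0.84), none of which passed the test.

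BAT2, the cytosolic branched-chain amino acid aminotransferase, had 462 CPM in pub1Δ against 268, 339 and 263 CPM in wt of batch 1. It had 429 CPM in pub1Δ of batch 4 and 563 to 640 CPM in pub1Δ of batch 3, against 312 and 281 CPM in wt of batch 4. All 5 pub1Δ libraries were thus above all 5 wt libraries (0.61 ± 0.14, log2, SE; edgeR adjusted p = 0.147). CIT2, the peroxisomal citrate synthase whose mRNA is a standard readout of the retrograde response from mitochondria to nucleus, had 86.9 to 123 CPM over the 5 pub1Δ libraries and 54.7 to 72.8 CPM over the 5 wt libraries. Its batch-adjusted difference was 0.55 ± 0.13 (log2, SE; edgeR adjusted p = 0.189). It was the 1 of 16 tested retrograde response genes that moved (6.25%, with and without the length correction, near the share of all tested genes), and the median of that list was 0.01.

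In the lower direction ARG1, the argininosuccinate synthetase of arginine synthesis, showed the largest difference after PUB1. It had 10.5 CPM in pub1Δ against 20.6, 23.4 and 13.3 CPM in wt of batch 1. It had 10.7 CPM in pub1Δ of batch 4, and 18.2, 9.93 and 9.49 CPM in pub1Δ of batch 3, against 32.2 and 38.3 CPM in wt of batch 4. The difference was -1.27 ± 0.32 (log2, SE; edgeR adjusted p = 0.19), and the counts behind it are low. No other of the 14 tested genes of the arginine pathway moved, with or without the length correction, and the list had a median of -0.14. The lower share was thus 7.14%, against 5.51% of all tested genes and 5.26% after the correction. ARG1 carries the core motif of Gcn4, the activator of amino acid synthesis genes, in the 500 bases before its start codon. TGACTC, searched on both strands, stood there in 13 of the 14 arginine genes and in 13.1% of all tested genes, so the motif is shared by the members that did not move. The nearest match of ARG1, on the opposite strand, ends 269 bases before the start codon at chrXV:218927-218952 (RefSeq, assembly R64). It is shown in the direction of the gene with the motif in capitals.
ARG1: ccgtatggaaGAGTCAtttaaaggca

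ERG1, squalene epoxidase of sterol synthesis, had 258 CPM in pub1Δ against 343, 378 and 295 CPM in wt of batch 1. It had 400 to 428 CPM in pub1Δ of batches 3 and 4 against 603 and 614 CPM in wt of batch 4, a difference of -0.47 ± 0.11 (log2, SE; edgeR adjusted p = 0.147). Of the 26 tested sterol genes 3 were lower in every batch, ERG1, ERG13 (HMG-CoA synthase) and HMG1 (HMG-CoA reductase), and 1 was higher, ERG28 (a scaffold of the sterol enzymes). These were 11.5% lower and 3.85% higher, against 5.51% and 6.38% of all tested genes. After the length correction 4 were lower (15.4% against 5.26%) and 0 higher, with ERG1 and ERG13 still among them but not HMG1. The list had a median of -0.10. PPM2, a methyltransferase that makes the tRNA base wybutosine (-0.88), FRE8, a putative ferric reductase (-0.63), AAC3, an ADP/ATP carrier made under anaerobic conditions (-0.64), and FRK1, a kinase (-0.52), were also lower in every batch, and none passed the test.

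The sulfate assimilation and methionine genes, which reduce sulfate to sulfide and build it into homocysteine, had 6 of 37 tested members higher in every batch and 1 lower (6 and 2 after the length correction). The higher members were 16.2% of the list, against 6.38% of all tested genes, and 16.2% against 4.3% after the correction. The lower members were 2.7% against 5.51%, and 5.41% against 5.26%. Their median differences were 0.08 in batch 1, 0.13 in batch 4 and 0.11 for batch 3 against wt of batch 4, against medians of -0.01 to 0.01 over all tested genes. MET3, the ATP sulfurylase that starts the pathway, had 48.0 CPM in pub1Δ against 32.2, 35.6 and 31.6 CPM in wt of batch 1, and 43.3 to 73.0 CPM in pub1Δ of batches 3 and 4 against 30.9 and 38.3 CPM in wt of batch 4. MET14, the kinase of the next step, had 94.2 CPM in pub1Δ against 53.7 to 70.7 CPM in wt of batch 1, and 71.4 to 162 CPM against 56.4 and 56.9 CPM in wt of batch 4. Both were above wt in all 3 comparisons, although the edgeR adjusted p was 0.411 for each. MET10, a subunit of sulfite reductase (0.19), MET17, which makes homocysteine from sulfide (0.27), MET32, a zinc finger activator of the pathway (0.60), and MHT1, which recycles methionine from S-methylmethionine (0.44), completed the 6. The counts of MET32 are low, with 20 in pub1Δ against 15 and 8 in wt of batch 4. HOM3, the aspartate kinase that supplies the carbon skeleton of methionine and threonine, was lower at 92.0 CPM in pub1Δ against 120 to 129 CPM in wt of batch 1, and 123 to 129 CPM in pub1Δ of batches 3 and 4 against 173 and 161 CPM in wt of batch 4.

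Of these 7 genes 6 carry CACGTG, the E-box bound by Cbf1, a factor of the methionine genes, in the 500 bases before their start codon, against 24 of the 37 list members (64.9%) and 6.42% of all tested genes. The nearest match of each is printed in the direction of the gene with the E-box in capitals, since the genes that moved share it with HOM3, which moved the other way. CACGTG reads the same on both strands. The windows come from the RefSeq genome of assembly R64 at chrX:455869-455894 for MET3, chrVI:213071-213096 for MET10, chrXI:439598-439623 for MET14, chrXII:732232-732257 for MET17, chrIV:964928-964953 for MET32 and chrV:258247-258272 for HOM3.
MET3: ccagaaaagtCACGTGtaattttgta
MET10: cttatagaagCACGTGaccacaattc
MET14: ccactaatttCACGTGatcaatatat
MET17: tggcaaatggCACGTGaagctgtcga
MET32: gactaacatgCACGTGacattttgtg
HOM3: tggctctaacCACGTGtatttttcag
The E-box ends 355, 226, 223, 295, 373 and 299 bases before the start codons of these genes in the order printed. Over the genes of all functions, CACGTG stood before 8.07% of the higher and 5.71% of the lower genes, near the 6.42% of all tested genes.

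**Figure D4:**
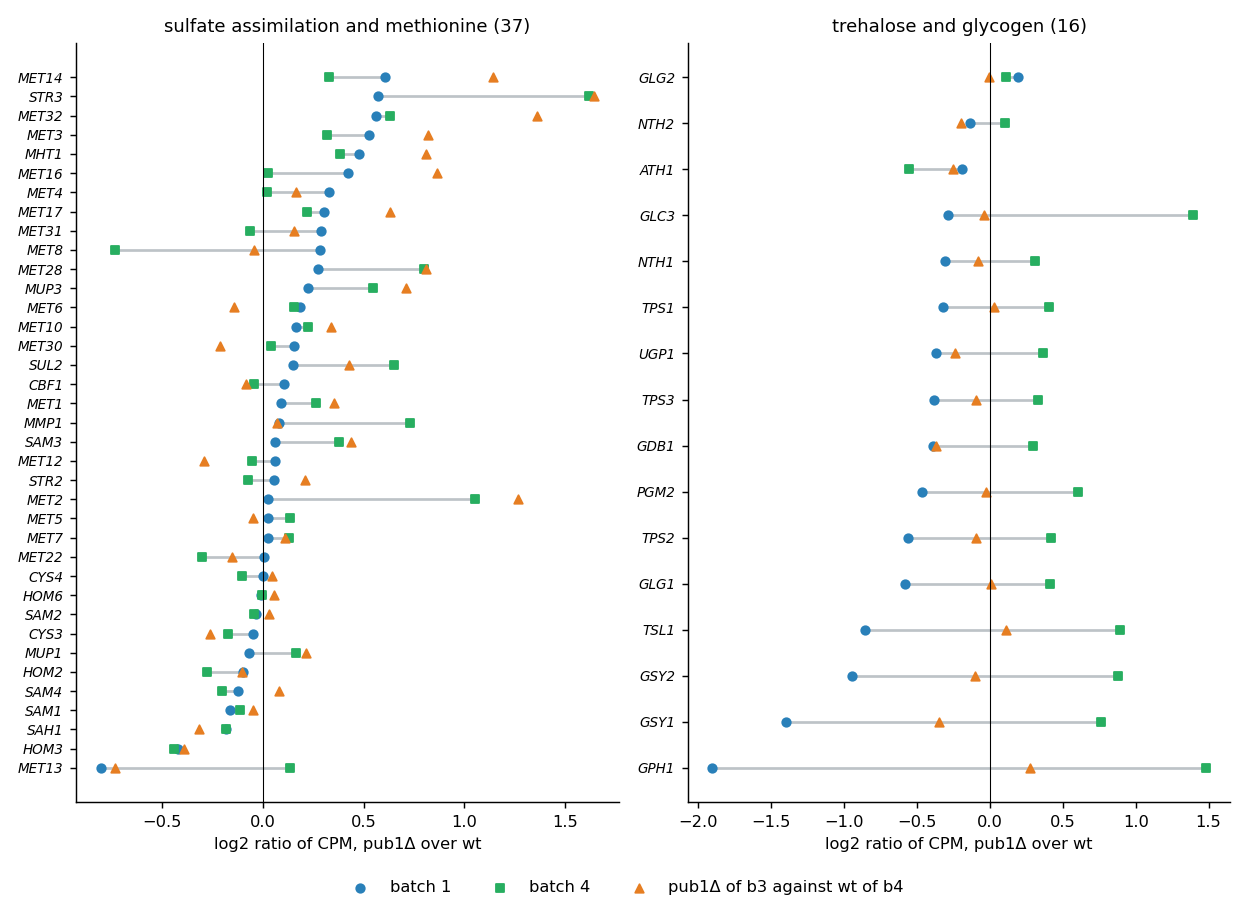
Log2 ratio of CPM, pub1Δ over wt, for every tested member of the sulfate and methionine list (left, 37 genes) and of the trehalose and glycogen list (right, 16 genes), in batch 1 (circles), batch 4 (squares) and batch 3 against wt of batch 4 (triangles). MET3, MET14, MET17, MET32 and MHT1 lie right of 0 in all 3 comparisons, while GPH1 lies at -1.90 in batch 1 and at 1.48 in batch 4.

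Genes of the phosphate regulon had 4 of 18 tested members higher in every batch and 1 lower (3 and 1 after the length correction). The higher members were 22.2% of the list against 6.38% of all tested genes, and 16.7% against 4.3% after the correction, and the lower member was 5.56%, near the 5.51% of all. The list medians were 0.07, -0.03 and 0.11 in the 3 comparisons. PHO5, the main secreted acid phosphatase, had 287 CPM in pub1Δ against 221, 213 and 169 CPM in wt of batch 1. In batch 4 it had 73.8 CPM in pub1Δ against 59.7 and 71.1 CPM in wt. PHO11, another acid phosphatase (0.55), PHO89, a sodium-phosphate transporter (0.55), and SPL2, a regulator of low-affinity phosphate uptake (0.19), were the other higher genes. VTC4, the polyphosphate polymerase, was lower (-0.17). None of the 5 passed the test.

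Among the gene lists examined, mitochondrial ribosomal proteins had the most higher genes by number before the length correction, with 16 of 67 tested members higher in every batch and 0 lower (23.9% against 6.38% of all tested genes). MRPS16 had 92.4 CPM in pub1Δ against 60.5, 43.1 and 61.2 CPM in wt of batch 1, and 60.7 to 96.4 CPM in pub1Δ of batches 3 and 4 against 38.8 and 47.4 CPM in wt of batch 4 (0.64 ± 0.14, log2, SE; edgeR adjusted p = 0.147). The other 15 differed by 0.14 to 0.46 in the batch-adjusted fit. These genes are short, with a median coding length of 699 bases, and after the length correction 5 of the 67 were higher (7.46% against 4.3% of all tested genes) and 0 lower. The 5 were MRPS16, MRP20, MRPL25, MRP49 and MRP51. The list median was 0.05 in batch 1, 0.15 in batch 4 and 0.38 for batch 3 against wt of batch 4. Histones, which are shorter still at a median of 399 bases, had 3 of 11 members higher before the correction, HTA1 and HHF1 among them (27.3% against 6.38%), but 1 higher (9.09% against 4.3%) and 3 lower (27.3% against 5.26%) after it.

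The proteasome had 4 of 34 tested members higher in every batch and 0 lower, and 4 and 2 after the length correction. The higher members were 11.8% of the list, against 6.38% of all tested genes and 4.3% after the correction, and the corrected share of lower members, 5.88%, was near the 5.26% of all. SEM1, a small subunit of the proteasome lid, had 241 CPM in pub1Δ against 183, 112 and 202 CPM in wt of batch 1, and 177 to 231 CPM in pub1Δ of batches 3 and 4 against 114 and 138 CPM in wt of batch 4. PRE9, a core subunit (0.10), RPT2, an ATPase of the base (0.11), and RPN13, a ubiquitin receptor (0.20), differed less. In one-carbon metabolism GCV1 and GCV3, subunits of the glycine cleavage complex (0.33 and 0.34), and MTD1, a methylenetetrahydrofolate dehydrogenase (0.24), were higher, while ADE12 and ADE17 of purine synthesis and IMD3 and IMD4, IMP dehydrogenases, were lower. This gave 3 higher and 4 lower of 26 tested purine and one-carbon genes (4 and 1 after the length correction). The shares were 11.5% higher and 15.4% lower, against 6.38% and 5.51% of all tested genes, and 15.4% and 3.85% against 4.3% and 5.26% after the correction.

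Among the lower genes were abundant enzymes of glycolysis and fermentation, with 0 of 22 members higher and 4 lower in every batch, with the same numbers after the length correction. The lower members were 18.2% of the list, against 5.51% of all tested genes and 5.26% after the correction. The list medians were -0.17 in batch 1, -0.19 in batch 4 and -0.14 for batch 3 against wt of batch 4. TDH3, the major glyceraldehyde-3-phosphate dehydrogenase, differed by -0.34 ± 0.14, PGK1, phosphoglycerate kinase, by -0.29 ± 0.12, PDC1, pyruvate decarboxylase, by -0.29 ± 0.12, and ADH1, alcohol dehydrogenase, by -0.27 ± 0.13 (log2, SE). The edgeR adjusted p of these 4 was 0.439 to 0.549.

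Genes for RNA-binding proteins of stress granules and P-bodies, the granules in which Pub1 itself is found, had 6 of 41 tested members lower and 3 higher in every batch (7 and 1 after the length correction). The lower members were 14.6% of the list against 5.51% of all tested genes, and 17.1% against 5.26% after the correction, while the higher members, 7.32%, were near the 6.38% of all. PAT1, which activates decapping, had 114 CPM in pub1Δ against 153, 145 and 141 CPM in wt of batch 1. It had 151 CPM in pub1Δ of batch 4 and 111 to 122 CPM in pub1Δ of batch 3, against 216 and 181 CPM in wt of batch 4 (-0.38 ± 0.10, log2, SE; edgeR adjusted p = 0.21). SBP1, a repressor of translation (-0.39), TIF4631, the eIF4G scaffold (-0.28), DED1, a DEAD-box helicase of initiation (-0.27), SCD6, which binds eIF4G (-0.13), and XRN1, the main cytoplasmic exonuclease (-0.15), were the other lower genes. LSM1, LSM3 and EDC3, all of the decapping machinery, were higher by 0.12, 0.47 and 0.19. After the length correction XRN1 was no longer among the lower genes, nor LSM1 and LSM3 among the higher. DED1 differed by -0.47 in batch 1 and -0.08 in batch 4, but by -1.93 for batch 3 against wt of batch 4. The list median was 0.01 in batch 1, 0.03 in batch 4 and -0.25 for batch 3 against wt of batch 4, so the list as a whole was lower in 1 comparison alone.

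A wider view came from the Gene Ontology terms that RefSeq attaches to yeast genes on experimental evidence, of which 36 covered at least 75 tested genes. These terms were looked at after the values were known, and 2 are given here for their relation to Pub1, with PUB1 left out. Of 170 mRNA binding genes 27 were lower in every batch (15.9% against 5.51% of all tested genes) and 3 were higher, and 17 were lower (10% against 5.26%) and 4 higher after the length correction. Of 93 stress granule genes 12 were lower (12.9%) and 1 was higher, and 11 (11.8%) and 1 after the correction. The 2 terms share members with each other and with the list before, so they are not separate evidence. PAT1, SBP1, TIF4631, DED1, SCD6 and XRN1 of that list are among the lower genes of both terms. TEF4 and YEF3, given below with the elongation factors, are among the lower stress granule genes. Both groups are longer than the average gene, with median coding lengths of 1792.5 and 1449 bases. Besides the genes above, the lower mRNA binding genes include PUF4, a Pumilio protein that binds mRNA tails, and SCP160, a KH-domain protein of polysomes. HEK2, a KH-domain protein that localizes ASH1 mRNA, is another of them.

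Translation initiation and elongation factors had 0 of 38 members higher and 4 lower (0 and 4 after the length correction, 10.5% against 5.51% and 5.26% of all tested genes), namely TEF2 (eEF1A), TEF4 (eEF1B gamma), YEF3 (elongation factor 3) and GCN20 (an activator of the Gcn2 kinase). Ribosome assembly factors had 0 of 118 higher and 11 lower (9.32% against 5.51% of all tested genes), but 0 higher and 5 lower after the length correction (4.24% against 5.26%), so the corrected share was not above that of all genes. The 11 included NOP1, the methyltransferase of box C/D particles, NOG1, a nucleolar GTPase, and LSG1, a cytoplasmic GTPase of large subunit maturation. Their list median was 0.07 in batch 1 but -0.28 in batch 4 and -0.22 for batch 3 against wt of batch 4. Cytosolic ribosomal proteins, at a median length of 433.5 bases, had 2 higher and 1 lower of 138. These were 1.45% and 0.725%, against 6.38% and 5.51% of all tested genes. After the length correction 1 was higher (0.725% against 4.3%) and 28 were lower (20.3% against 5.26%). Their count therefore depends on that correction.

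GCN4, the uORF-controlled activator that Pub1 is known to stabilize, was lower in every batch. It had 1442 CPM in pub1Δ against 1732, 1930.3 and 1563 CPM in wt of batch 1, and 1394 to 1550.2 CPM in pub1Δ of batches 3 and 4 against 1699.7 and 1921 CPM in wt of batch 4. All 5 pub1Δ libraries were below all 5 wt libraries, by -0.32 ± 0.12 (log2, SE; edgeR adjusted p = 0.431). Together with NAM7, the Upf1 helicase of nonsense-mediated decay (-0.12), and CLN3, a G1 cyclin with an upstream reading frame (-0.15), it gave 3 lower and 0 higher of the 10 tested genes of decay and uORF mRNAs (2 and 0 after the length correction). This was 30% against 5.51% of all tested genes, and 20% against 5.26% after the correction, in a list of 10. The list median was -0.03, and 5 of the 10 had a positive batch-adjusted difference, so the list as a whole was not lower.

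**Figure D5:**
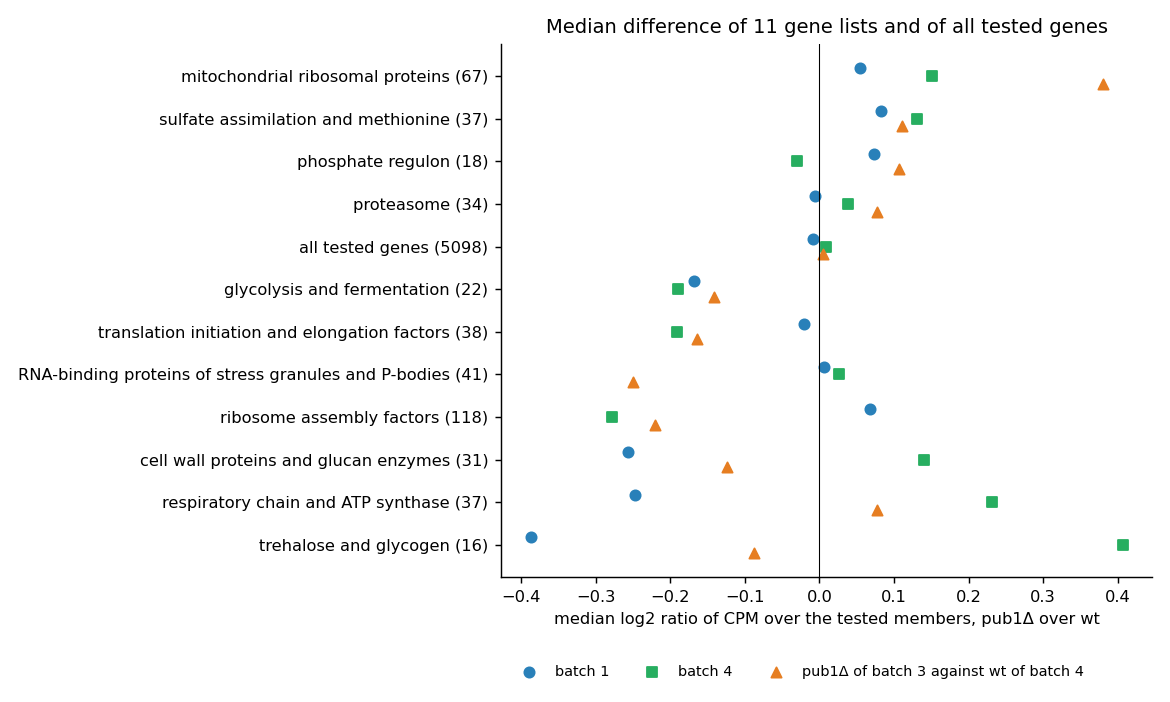
Median log2 ratio of CPM, pub1Δ over wt, of the tested members of 11 gene lists and of all tested genes, in batch 1 (circles), batch 4 (squares) and batch 3 against wt of batch 4 (triangles). Glycolysis and fermentation lie between -0.19 and -0.14 in all 3 comparisons, while trehalose and glycogen lie at -0.39 in batch 1 and 0.41 in batch 4.

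Energy reserve and respiratory genes went in opposite directions in batches 1 and 4. The 16 tested trehalose and glycogen genes had a median of -0.39 in batch 1, 0.41 in batch 4 and -0.09 for batch 3 against wt of batch 4, and 0 of them moved the same way in every batch, with or without the length correction. GPH1, glycogen phosphorylase, had 9.38 CPM in pub1Δ against 39.9, 41.0 and 28.4 CPM in wt of batch 1, but 54.8 CPM in pub1Δ against 26.3 and 12.3 CPM in wt of batch 4. HXK1, the hexokinase made when glucose runs low, had 37.2 CPM in pub1Δ against 134, 181 and 124 CPM in wt of batch 1, but 198 CPM in pub1Δ against 110 and 40.5 CPM in wt of batch 4. The strain difference in batch 4 minus that in batch 1 was 3.43 for GPH1 (edgeR adjusted p = 0.108) and 3.36 for HXK1 (adjusted p = 0.36), and PUB1 was the 1 gene for which edgeR called this difference (0.0196% of those tested), with 238 genes at an unadjusted p under 0.05. Those 238 genes are below the share of 0.05 of the 5098 tested genes that no difference at all would give. The 37 tested genes of the respiratory chain and ATP synthase had medians of -0.25 in batch 1, 0.23 in batch 4 and 0.08 for batch 3 against wt of batch 4. In every batch 1 was higher and 1 lower (2.7% each, against 6.38% and 5.51% of all tested genes), and 0 and 1 after the length correction. Cell wall genes had medians of -0.26, 0.14 and -0.12 in the same order, though 4 of 31 were lower in every batch, TOS1, CRH1, PIR1 and EXG2 (12.9% against 5.51% of all tested genes), and 4 after the length correction (12.9% against 5.26%).

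The higher and lower genes, as counted without the length correction, were then set beside measures that had not been used to choose them. In the 150 bases after the stop codon the median share of T was 33.3% for the higher genes, 37.3% for the lower genes and 36% for all tested genes. A run of at least 8 T stood there in 14.9% of the higher, 16.8% of the lower and 14.3% of all genes. These windows differ in other ways too, since the lower genes are longer and had a higher median level, 130 CPM against 50.4 CPM for the higher genes and 64.9 CPM for all. The relation of the T content to length was not tested.

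Ribo-Seq footprints were the other readout. They came from parts of the same lysates, so they are another assay of these cultures, not other cultures. In a batch-adjusted fit of Ribo-Seq, where pub1Δ and wt share batch 1 alone and the estimate rests on 1 pub1Δ library, footprints were higher in pub1Δ for 182 of 272 measured higher genes (66.9%, median 0.11, log2). They were higher for 83 of 265 lower genes (31.3%, median -0.09) and for 2065 of 4461 protein-coding genes (46.3%, median -0.02). edgeR called 3 of 4589 genes (0.0654%), PUB1 lower (0.0218%) and TDA1 and CIT2 higher (0.0436%), with 334 genes at an unadjusted p under 0.05. CIT2 footprints were at 93.6 CPM in pub1Δ of batch 1 and 70.3 to 87.5 CPM in pub1Δ of batch 3, against 39.5 and 38.8 CPM in wt of batch 1 and 42.7 and 28.9 CPM in wt of batch 4 (1.25, log2; edgeR adjusted p = 0.048).

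TDA1, a protein kinase of the glucose response named here after its values were seen, had footprints of 102 to 130 CPM in the 4 pub1Δ libraries against 36.0 to 52.2 CPM in the 4 wt libraries (1.18, log2; edgeR adjusted p = 0.048). Its RNA level was 50.5 CPM in pub1Δ against 28.4 to 34.3 CPM in wt of batch 1, and 67.1 CPM in pub1Δ against 38.0 and 28.7 CPM in wt of batch 4, but 31.3, 40.6 and 49.4 CPM in pub1Δ of batch 3. It was not higher in every batch for that reason, and the batch-adjusted RNA difference was 0.86 ± 0.17 (log2, SE; edgeR adjusted p = 0.0869). PTR2 footprints were at 614 CPM in pub1Δ against 443 and 455 CPM in wt of batch 1, with a difference of 0.45 that did not pass the test. For MET3 the footprint difference was 1.50 (edgeR adjusted p = 0.163) beside 0.44 in RNA, and for ARG1 it was -1.19 beside -1.27. GCN4 footprints differed by 0.66 where its RNA differed by -0.32, and neither value passed the test. The footprints were at 50.7 CPM in pub1Δ against 35.1 and 28.8 CPM in wt of batch 1. In pub1Δ of batch 3 they were at 33.7, 48.8 and 35.2 CPM, against 42.7 and 46.2 CPM in wt of batch 4. The rise in GCN4 footprints was thus seen in batch 1 alone.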

How the data were processed

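RNA-Seq had been done on 14 samples and Ribo-Seq on 12. The deposited values were whole-number read counts per gene: per the labels and the methods the authors trimmed reads with cutadapt 2.10, removed rRNA reads with Bowtie2 1.2.3 and counted uniquely mapped reads with STAR 2.7.9a on the R64 assembly. These counts were used without a change. Per-library rows for unmapped and multimapping reads were used for read shares alone.

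Counts were analysed in R 4.3.3 with edgeR 4.0.16 (TMM factors, quasi-likelihood F-test, Benjamini-Hochberg adjustment over all tested genes, called at 0.05). Batch and strain were terms in a fit of the 14 RNA-Seq libraries, and the gir2Δ libraries entered only for the spread and the batch levels. The within-batch tests came from a fit with 1 mean per strain and batch. Gene counts limit the precision of each level, and genes near 10 CPM carry few counts. Log2 ratios of mean CPM had 0.5 CPM added, and log2 CPM used a prior count of 2. The count of genes moving in every batch is a rule on non-overlap, with no test. The length correction subtracted, within each library, a loess curve (span 0.5) of level deviation on coding length.

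RefSeq matched 6078 of the 7036 identifiers, and 5043 tested genes had a coding length. Genes with near-identical copies, histones and ribosomal protein genes among them, have uncertain counts. Named genes were PUB1 and its neighbours, the called genes, the 12 per direction with the largest smallest within-batch difference, and from each list the members moving in every batch, otherwise up to 3 of the highest level. Not all of these are printed. Genes and lists were chosen with earlier results of these data known. Alternatives were DESeq2 1.42.0, ComBat-seq (sva 3.50.0), other factors, filters, batch terms and leaving out libraries. The tests were checked on simulated data. Same-numbered pub1Δ and wt libraries were not treated as pairs, since their deviations correlated at -0.44, 0.43, 0.37, -0.17 and 0.77.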

Additional observations from a re-analysis of the deposited data

Results flagged for a closer look

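In the 64 groups of 5 libraries examined, 9 had 1 library set apart from the other 4 by Dixon's criterion (14.1%). All 9 were pub1Δ groups, which span 3 batches. Chance marks about 1 in 20 groups where the 5 libraries come from 1 population. These groups mix batches and their genes were chosen with earlier results known, so that rate does not apply to them. The library above the others was pub1Δ replicate 4 for PUB1 (18.6 CPM against 0.284 to 1.08 CPM), for PPM2 (10.7 CPM against 7.51 to 7.96 CPM) and for PAT1 (151 CPM against 111 to 122 CPM). It was pub1Δ replicate 5 for PTR2 (284 CPM against 58.8 to 80.9 CPM) and for FRE8 (13.7 CPM against 2.56 to 5.2 CPM), replicate 2 for CIT2 (123 CPM against 86.9 to 97.1 CPM) and replicate 1 for ARG1 (18.2 CPM against 9.49 to 10.7 CPM). The lowest library was pub1Δ replicate 5 for ERG1 (258 CPM against 400 to 428 CPM) and for HOM3 (92.0 CPM against 123 to 129 CPM).

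The strain difference of PUB1 was larger in size in batch 1 than in batch 4, by 3.53 on the log2 scale, and edgeR called this difference. For GPH1 (3.43) and HXK1 (3.36) the pub1Δ library lay below wt in batch 1 and above wt in batch 4, and the edgeR test of the difference did not pass the threshold.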

How the results depend on the processing

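The batch-adjusted count of 2 genes became 5 without a filter, 17 without a batch term, 132 with 2 batch levels, 551 after ComBat-seq and 11 with DESeq2, and 1 to 5 with 1 library left out. With the replicate number as a block it was 6 in place of batch and 1 beside batch, where PTR2 was at 0.85 and not called. PTR2 was at -0.067 without a batch term and at -0.13 with the replicate block and no batch term, the reversals found. Within batch 1 the call became 2 after the length correction, an alternative chosen after the data were seen, and 4 with that batch alone. Within batch 4 it became 2 after the length correction or without a filter and 39 with that batch alone. The difference between the batch effects gave 2 calls after the length correction, 3 without a filter and 1 to 3 with 1 library left out. Batches 3 and 4 against wt of batch 4 gave 2 after the length correction, 30 without a filter, 59 with DESeq2 and 1 to 498 with 1 library left out (46 without pub1Δ replicate 1, 498 without pub1Δ replicate 4). Genes higher in every batch numbered 119 with differences of at least 0.25, 1081 by sign and 343 to 591 with 1 library left out (591 without wt replicate 3). Lower genes numbered 65, 1027 and 307 to 568 (568 without wt replicate 3). Ribo-Seq calls became 40 without a filter, 5 at 30 CPM, 5 without batch, 7 with the replicate block, 7 with DESeq2, 545 after ComBat-seq and 1 to 6 with 1 library left out. The causes were not tested. Leaving out pub1Δ replicate 4 or 5 gave no value where it is the lone pub1Δ library of its batch, nor did Ribo-Seq without pub1Δ replicate 4.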
